A study of Ovis aries with 62 samples.

Results

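Butyrate taken up by the rumen wall is activated to butyryl-CoA and then degraded by the short-chain steps of mitochondrial beta oxidation. The expression of 5 sheep genes of this route was followed over 62 AUS sheep: *ACADS* (ENSOARG00000013118), *ECHS1* (ENSOARG00000000369), *HADH* (ENSOARG00000008236), *ACSF2* (ENSOARG00000004315) and *ETFA-like* (ENSOARG00000010175). They were chosen by identifier from the 16011 genes of the table for their place in the route, with earlier results of these data known, and all 5 were found in it. Their levels lay between 95.8 and 1363 CPM (read counts scaled to library size) over all libraries. Each sheep gave 1 RNA sequencing library of the full thickness of the ventral rumen wall, which holds the epithelium together with the muscle layers. The animals were adult Merino ewes, all fed the same mixture of lucerne and oat chaff above maintenance, with no treatment and no untreated control. They were measured in 4 successive test blocks, with 14 sheep in block 3 and 16 in each of the others. The sample labels gave the block, live weight, CH4 production and dry matter intake (DMI) of each animal, and CH4 yield was computed as CH4 production over DMI.

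The rumen epithelium is known for oxidizing much of the butyrate it absorbs and for releasing part of it to the blood as ketone bodies. Acyl-CoA synthetases couple the acid to coenzyme A. The study put forward *ACSF2*, a mitochondrial acyl-CoA synthetase that acts on medium-chain acids in humans, as a candidate for butyrate. *ACADS*, the short-chain acyl-CoA dehydrogenase, makes the first double bond. *ECHS1*, the short-chain enoyl-CoA hydratase, adds water to it, and *HADH*, the short-chain hydroxyacyl-CoA dehydrogenase, oxidizes the product to acetoacetyl-CoA. *ETFA* is the alpha subunit of the electron transfer flavoprotein, which takes the electrons of *ACADS* and related dehydrogenases towards the respiratory chain. Acetoacetyl-CoA is then cleaved by thiolases or used for ketone bodies, of which *BDH1* makes β-hydroxybutyrate.

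The libraries held 4208032 to 12130080 assigned reads (median 7923973), with a median of 6812020 in block 1 and of 8215480, 8694507 and 8588580 in blocks 2 to 4. The highest *r* between any 2 libraries was 0.968. Genes that mark smooth muscle (*MYH11*, mean 13.53 log2 CPM) and stratified epithelium (*KRT13*, mean 10.43 log2 CPM) were both well expressed. Results on DMI and CH4 yield rest on 61 sheep, without oz151 (block 3), whose labeled DMI was far below that of every other animal. This sheep was kept for CH4 production, although its labeled value is identical to that of oz224 of the same block. Values below are log2 CPM, so a difference of 1 is a doubling. Gene lengths were not used here, and levels are therefore not compared between genes. Sire was not in the labels, and each test takes the sheep as independent.

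All 5 genes were lower in block 1 than in blocks 2–4. The paper had already reported lower epithelial differentiation genes in block 1 of these same sheep, and this comparison was chosen for that reason. Its adjusted *p* do not account for that choice. *ACADS* lay at 6.88, 7.59 and 8.05 log2 CPM in block 1 (lowest, median and highest of 16 sheep). The same 3 values were 7.44, 8.04 and 8.53 for block 2, then 7.09, 7.71 and 8.62 for block 3, then 7.25, 7.97 and 8.67 for block 4. The blocks overlapped: 15 of the 16 sheep of block 1 were inside the range of the other 46, but 15 were also below their median. The mean was 7.59 ± 0.30 in block 1 and 7.90 ± 0.41 in blocks 2–4 (SD, *n* = 16 and 46). The difference was -0.31 (SE 0.106), that is 19.5% lower in block 1, with an adjusted *p* of 0.0161 (limma, Benjamini-Hochberg over all 16011 genes).

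*ECHS1* had a lowest, median and highest value of 7.99, 8.46 and 9.02 log2 CPM in block 1. Block 2 gave 8.41, 8.76 and 9.26, block 3 gave 8.20, 8.76 and 9.15, and block 4 gave 8.33, 8.85 and 9.11. Of the block 1 sheep, 14 were below the median of the rest and 3 were below every other sheep. The difference was -0.29 (SE 0.0744, adjusted *p* = 0.00157), or 18.2% lower in block 1. *HADH* spread more widely, with 7.99, 8.70 and 9.27 in block 1. Block 2 gave 8.59, 9.06 and 9.66, block 3 gave 8.24, 8.89 and 9.40, and block 4 gave 8.25, 9.06 and 9.51. Here 12 block 1 animals were under the median of the 46 others, and the difference was -0.26 (SE 0.101, adjusted *p* = 0.0336).

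*ACSF2*, the study's candidate for activating butyrate, had 9.03, 9.57 and 9.93 log2 CPM in block 1, and then 9.46, 9.88 and 10.28 (block 2), 9.32, 9.71 and 10.32 (block 3) and 9.35, 9.86 and 10.41 (block 4). It had 4 block 1 sheep below all 46 others, and differed by -0.24 (SE 0.0848, adjusted *p* = 0.0226). *ETFA-like*, the electron acceptor, had 6.58, 7.10 and 7.59 in block 1, and then 7.04, 7.37 and 7.81 (block 2), 6.77, 7.37 and 7.98 (block 3) and 6.87, 7.51 and 7.87 (block 4). Its difference was -0.36 (SE 0.0811, adjusted *p* = 0.000342), or 22.1% lower in block 1. No sheep of block 1 was above the highest sheep of blocks 2–4 for any of the 5 genes. Most sheep are in blocks 2–4, and the share of all genes with this pattern was not computed.

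Block 1 differed from the other blocks in a large part of the table. Over all genes, 19.4% were lower in block 1 and 17.3% were higher, so that 5 of 5 lower genes stand against a background of 19.4%. The drop was not particular to them. In the study's lists, 25 of 37 other lipid/oxo-acid genes, 40 of 42 general metabolism genes and 37 of 43 epithelial differentiation genes were lower. Of 43 cell cycle genes, 0 were lower and 7 were higher. The 5 genes also vary together, so they are not 5 independent results. By *p*, *ETFA-like* was in position 1710 and *HADH* in position 5275 of the 16011 genes. Of the genes called, 52.8% were lower with the deposited scaling and 35.2% with reads scaled to the total of each library. With that second scaling the call remained for *ECHS1* and *ETFA-like* only, while *ACADS* (-0.24, adjusted *p* = 0.0588), *HADH* (-0.19, 0.114) and *ACSF2* (-0.17, 0.0979) kept their direction. The call of *HADH* was also lost without any 1 of the block 1 sheep oz40, oz85, oz89, oz109 and oz152 (adjusted *p* of 0.0812, 0.0644, 0.0691, 0.0534 and 0.0704). That of *ACSF2* was lost without oz89 or oz152 (0.0519 and 0.0564), and oz89 had 1 of the 3 shallowest libraries. Without those 3 libraries *HADH* (-0.23, adjusted *p* = 0.0892) and *ACSF2* (-0.20, 0.0673) were not called.

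**Figure D1:**
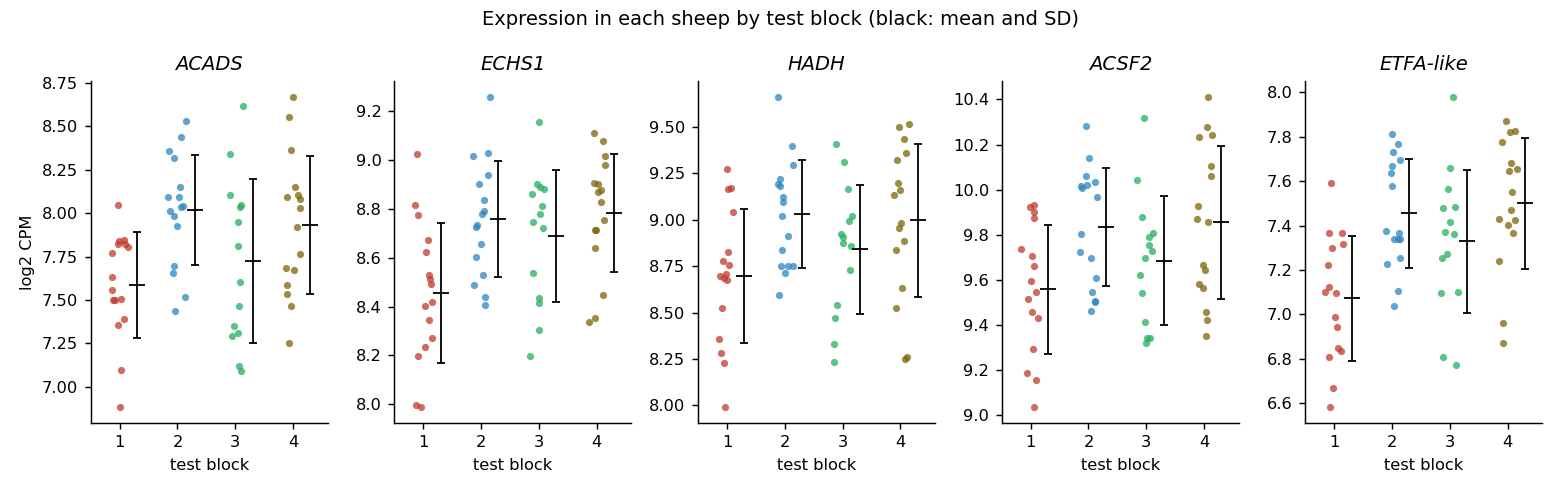
Expression of the 5 genes in each of the 62 sheep (y axis, log2 CPM, a separate scale for each gene) by test block (x axis), with a point for each sheep and the mean and SD in black. Block 1 holds the lowest sheep of each of the 5 genes and no sheep above the highest of blocks 2 to 4, and its points overlap those of every other block. How often this holds over all genes was not computed.

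Over the 4 blocks together, the *F* test passed for *ETFA-like* (adjusted *p* = 0.00212), *ECHS1* (0.0130) and *ACADS* (0.0259), but not for *ACSF2* (0.0633) or *HADH* (0.0965), against 26.5% of all genes. Between pairs of blocks, all 5 genes were lower in block 1 than in block 2, from -0.28 (*ACSF2*) to -0.43 (*ACADS*), where 22.4% of genes differed. Against block 4, where 30.7% of genes differed, 4 were lower in block 1, from -0.30 for *ACSF2* to -0.43 for *ETFA-like*, and *HADH* missed the threshold (-0.30, adjusted *p* = 0.0552). Against block 3, where 24.5% of genes differed, none of the 5 passed. The smallest adjusted *p* were 0.0559 (*ETFA-like*, -0.26) and 0.0595 (*ECHS1*, -0.23), with an unadjusted *p* under 0.05 for these 2 genes, and the 95% interval of *ACADS* ran from -0.40 to 0.13. No member passed between blocks 2, 3 and 4, where 0% of all genes were called between blocks 2 and 3, 0% between blocks 2 and 4 and 0.0125% between blocks 3 and 4. The unadjusted *p* was under 0.05 for 1028, 771 and 1024 genes, among them *ACADS* between blocks 2 and 3 (0.29, *p* = 0.0309).

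Muscle genes moved the other way. The mean of the genes of the muscle cluster, a list drawn from networks that include these sheep, was 6.24 ± 0.33 log2 CPM in block 1 (range 5.71 to 6.63), against 5.84 ± 0.37 (5.11 to 6.41), 5.84 ± 0.34 (5.02 to 6.33) and 5.77 ± 0.29 (5.22 to 6.24) in blocks 2 to 4 (SD). Of the genes of this list, 512 were higher in block 1 and 1 was lower. Of 10 smooth muscle markers, 7 had a symbol in the table, and all 7 were higher in block 1. Symbols came from the paper's tables, which hold the muscle cluster, so these 7 markers are not separate evidence. The 7 include *DES* (0.67, adjusted *p* = 0.0173), *CNN1* (0.75, 0.00608) and *MYH11* (0.50, 0.0290), and none was near 0. Of 16 epithelial markers, 4 had a symbol. The keratin *KRT78* (-1.62, adjusted *p* = 6.87e-07), the cross-linking enzyme *TGM1* (-0.63, 0.000187) and the desmosomal *DSG3* (-0.41, 0.000218) were lower in block 1, while *KRT13* was not called (0.30, 0.329). Of 4 matrix genes of fibroblasts, *FN1* (0.99, adjusted *p* = 0.000100) and *COL1A1* (0.66, 0.000928) were higher in block 1. Markers of endothelium, immune cells and nerve had no symbol in the table and were not analysed here. In samples of the whole wall, fewer cells of a type and less RNA per cell cannot be told apart.

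Across the sheep, each of the 5 genes fell as the muscle mean rose. *ECHS1* followed it most closely, with *r* = -0.822 (SE 0.0431, *n* = 62) and rho = -0.807, then *ACSF2* (*r* = -0.779, rho = -0.766), *ETFA-like* (-0.763, -0.747) and *HADH* (-0.691, -0.721). *ACADS* had the weakest relation, *r* = -0.584 (SE 0.0759) and rho = -0.603. Each of these 10 coefficients had a 2-sided permutation *p* of 1e-05, the smallest that 100000 permutations can give, and with the 2 sheep of most extreme muscle mean set aside *r* was -0.796, -0.747, -0.735, -0.651 and -0.531 in the same order. Within blocks, *r* of *ECHS1* was -0.720, -0.845, -0.791 and -0.766, while that of *ACADS* was -0.191, -0.471, -0.740 and -0.670 in blocks 1 to 4. The muscle mean went with 67.5% of the variance of *ECHS1* and 34.1% of that of *ACADS*, against a median of 10.01% over all genes.

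With the muscle mean as a covariate, none of the 5 genes passed between block 1 and blocks 2–4. The difference was -0.062 for *ACADS* (SE 0.104, adjusted *p* = 0.740), -0.035 for *ECHS1* (SE 0.0563, 0.732) and -0.11 for *ETFA-like* (SE 0.0687, 0.302), and the sign turned for *HADH* (0.035, SE 0.0881, 0.833) and *ACSF2* (0.047, SE 0.0657, 0.688). Set against the mean of the 41 lipid/oxo-acid metabolism genes, 4 of which are *ACADS*, *ECHS1*, *HADH* and *ACSF2*, no member passed over the 4 blocks, where 38.9% of all genes did. The smallest adjusted *p* of this *F* test was 0.268, for *ECHS1*.

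**Figure D2:**
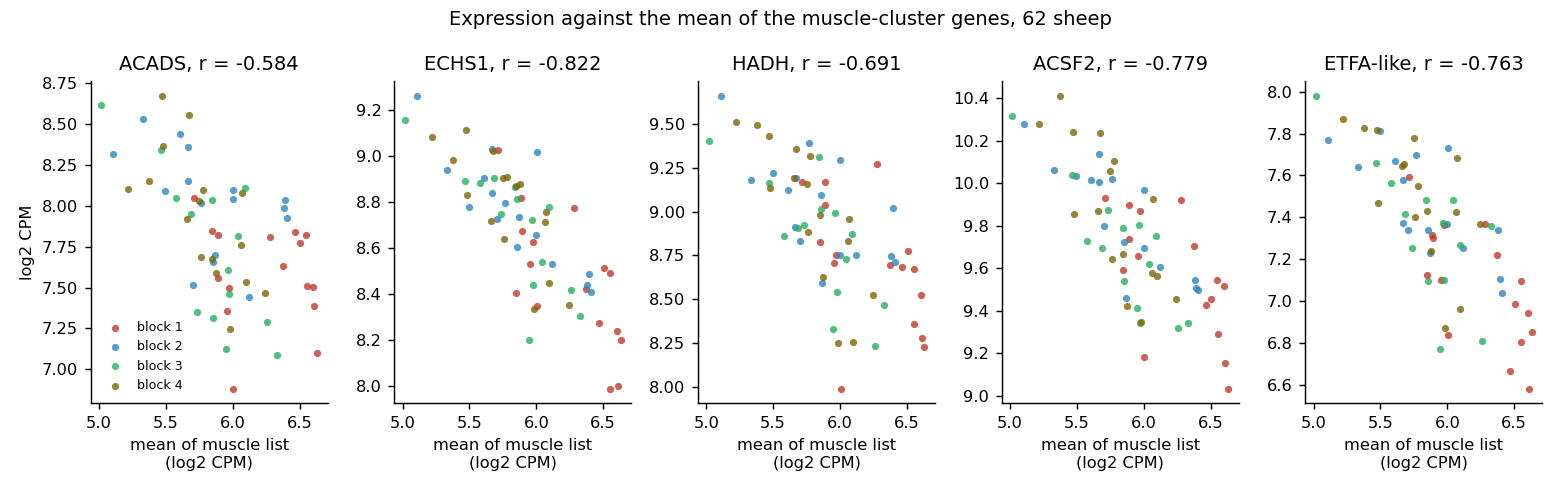
Expression of the 5 genes (y axis, log2 CPM) against the mean of the muscle-cluster genes in the same library (x axis, log2 CPM), with a point for each of 62 sheep colored by test block. The points fall to the right for every gene, most tightly for *ECHS1* (*r* = -0.822) and least for *ACADS* (*r* = -0.584), and the highest muscle mean (6.63) is that of a block 1 sheep.

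Other genes of the route were taken from 8 lists of 65 genes, of which 15 had a symbol in the table. In block 1, 6 of the 15 were lower and 3 were higher, where 19.4% of all genes were lower and 17.3% were higher. The median difference of the 15 was -0.16 against -0.0071 over all genes. Those lower include the thiolase *ACAT1* (-0.30, adjusted *p* = 0.00823), the β-hydroxybutyrate dehydrogenase *BDH1* (-0.34, 0.0110) and the isomerase *ECH1* (-0.25, 0.00215). The others are the monocarboxylate transporter *SLC16A1* (-0.36, 0.0153), its chaperone *BSG* (-0.32, 0.00244) and the sodium-proton exchanger *SLC9A3* (-1.16, 5.48e-07). Higher in block 1 were the long-chain acyl-CoA synthetase *ACSL1* (0.32, 0.0276), the nuclear receptor *PPARD* (0.49, 0.000361) and the coactivator *PPARGC1A* (0.68, 0.00695). Not called were *OXCT1* (0.26, 0.108), which activates ketone bodies for use, the isovaleryl-CoA dehydrogenase *IVD* (-0.16, 0.112), the acetyl-CoA synthetase *ACSS1* (0.31, 0.143) and others of the 15. With quantile normalization *BDH1* (-0.24, adjusted *p* = 0.0510) and *SLC16A1* (-0.26, 0.0780) were not called, which left 4 lower. With total scaling *OXCT1* was called as higher in block 1 (0.33, 0.0453). With the muscle mean as a covariate, *SLC9A3* (-0.72, 0.00210) and *PPARD* (0.45, 0.0121) of the 9 were still called. The sign turned in that fit for several of the 15, among them *IVD* (0.064, 0.628), *ACSL1* (-0.074, 0.648), *PPARGC1A* (-0.086, 0.727), *ACSS1* and *OXCT1*, the last 2 of which were called as lower in block 1 (-0.34, 0.0180 and -0.25, 0.0134).

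CH4 production ran from 13.4 to 34.6 g/d with a mean of 24.03 ± 4.72 g/d (SD, *n* = 62). *ACADS* was the member most closely related to it. In the 5 sheep with the highest CH4 production (30.7 to 34.6 g/d), *ACADS* was at 8.04, 8.67, 8.36, 8.09 and 8.53 log2 CPM, and in the 5 with the lowest (13.4 to 17.0 g/d) it was at 7.46, 7.31, 7.54, 6.88 and 7.76. These 2 sets did not overlap for *ACADS*. They did not overlap for *ACSF2* either (9.69 or more against 9.58 or less), but did for *ECHS1*, *HADH* and *ETFA-like*. How many of all genes show such a gap was not computed. Over all sheep, *r* was 0.450 (SE 0.101, permutation *p* = 0.00026) and rho was 0.394 (*p* = 0.00166). Setting aside the 2 sheep of most extreme CH4 production gave 0.3997, and blocks 1 to 4 alone gave 0.420, 0.476, 0.604 and 0.643.

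The slope of *ACADS* was 0.18 log2 per SD of CH4 production (SE 0.0456), in position 22 of 16011 genes by *p*, yet its *p* adjusted over all genes was 0.119. No member was therefore called, and 0.0125% of all genes were. The unadjusted *p* was under 0.05 for 1449 genes, among them 1 of the 5. With block as a covariate the slope was 0.20 and passed (adjusted *p* = 0.0338), as it did with the muscle mean (0.18, 0.0188) and with both (0.18, 0.0175). For these fits the share of all genes called is not given here, and 0.0125% is that of the fit without covariates. Other covariates gave other results for the slope of *ACADS*. With DMI or live weight as a covariate it was 0.30 (SE 0.0897, adjusted *p* = 0.324) and 0.17 (SE 0.0525, 0.776), and over all 17 alternatives the adjusted *p* ran from 0.0175 to 0.776. Without oz151 the slope was 0.18 (adjusted *p* = 0.134). *ACADS*, *ACSF2* and *ETFA-like* had been selected by the study partly on their correlation with CH4 traits in these same sheep, so their relations with CH4 here are not independent evidence. *ECHS1* and *HADH* had not.

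The other 4 genes were less closely related to CH4 production. For *HADH*, *r* was 0.240 (SE 0.119, permutation *p* = 0.0606) and rho was 0.215 (*p* = 0.0929), and for *ACSF2* they were 0.215 (SE 0.117, *p* = 0.0941) and 0.221 (*p* = 0.0835). For *ECHS1* they were 0.167 (SE 0.117, *p* = 0.195) and 0.190 (*p* = 0.140), and for *ETFA-like* 0.154 (SE 0.120, *p* = 0.229) and 0.149 (*p* = 0.244). With the same 2 sheep set aside, the 4 values of *r* were 0.194, 0.160, 0.102 and 0.137. Within blocks all 16 values were positive, from 0.0177 for *ETFA-like* in block 2 to 0.700 for the same gene in block 3. Their slopes were 0.048 to 0.089 log2 per SD, with 95% intervals that reached 0.18 at most, and their adjusted *p* were 0.563 to 0.785. The muscle mean itself was not related to CH4 production over all sheep (*r* = -0.0198, permutation *p* = 0.879; rho = -0.00642, *p* = 0.960), and *r* was 0.0774 with those 2 sheep set aside, but within blocks 1 to 4 *r* was 0.423, -0.0590, -0.600 and -0.371.

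**Figure D3:**
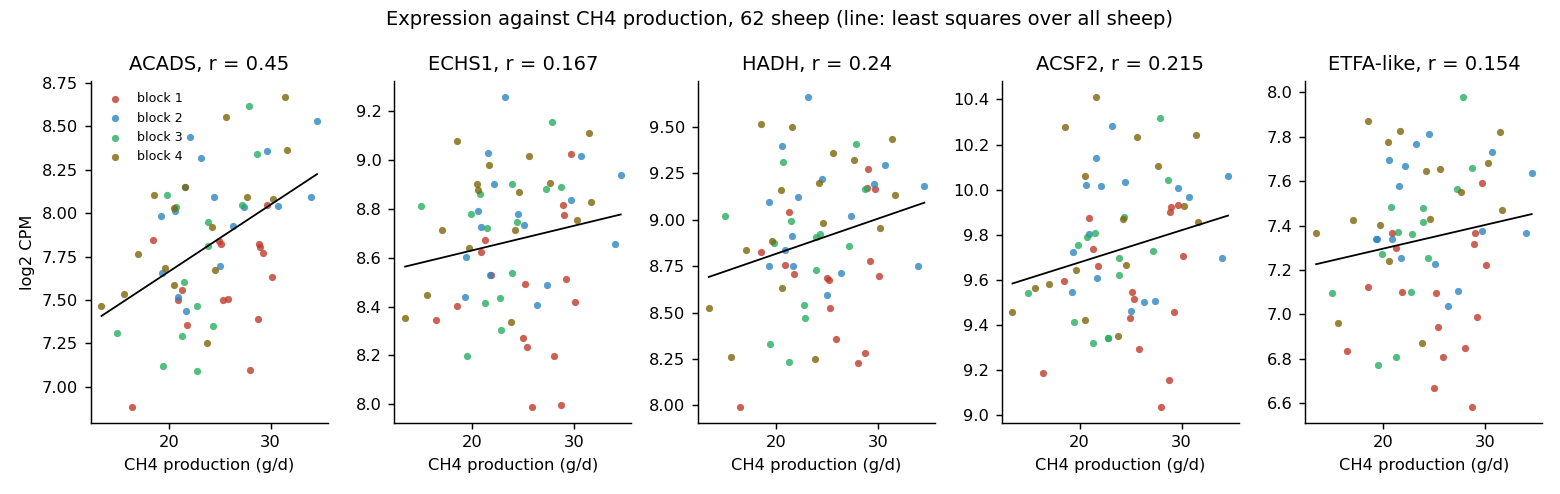
Expression of the 5 genes (y axis, log2 CPM) against CH4 production (x axis, g/d), with a point for each of 62 sheep colored by test block and the least squares line over all sheep. *ACADS* shows the steepest line (*r* = 0.450), and the other genes have *r* from 0.154 to 0.240.

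Whether the slopes of 2 genes differed was tested on the difference of their log2 CPM, for all 10 pairs and without adjustment. The slope of *ACADS* was steeper than that of each other gene. It exceeded that of *ECHS1* by 0.13 log2 per SD (permutation *p* = 6e-05), that of *ETFA-like* by 0.13 (*p* = 8e-05), that of *ACSF2* by 0.12 (*p* = 0.00011) and that of *HADH* by 0.093 (*p* = 0.00405). With rho in place of *r* these *p* were 0.00063, 7e-05, 0.00028 and 0.0094. Within blocks the ratio of *ACADS* to each other gene rose with CH4 production in all 16 cases, with *r* from 0.0892 (*HADH*, block 1) to 0.646 (*ETFA-like*, block 4). None of the 6 pairs without *ACADS* passed, with *p* from 0.107 to 0.902. The comparisons with *ACADS* all share that gene, which the study had selected partly on its correlation with CH4 traits in these same sheep. They are therefore a description and not independent evidence. Relative to the mean of the lipid/oxo-acid genes, *ACADS* had a slope of 0.10 (SE 0.0280, adjusted *p* = 0.0370). On that scale 4 genes passed with a positive slope (0.025% of all genes), *ACADS* among them, and 344 with a negative one. The other 4 members had slopes of -0.034 to 0.0083 on that scale, with adjusted *p* of 0.243 to 0.820.

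No member was called for CH4 yield or DMI, and 0% of all genes were called for either. The unadjusted *p* was under 0.05 for 1521 genes with CH4 yield and none of the 5, and for 1899 genes with DMI, of which *ACADS* was 1. With CH4 yield, *r* ran from 0.0688 for *ACADS* (permutation *p* = 0.602; rho = 0.125, *p* = 0.339) to 0.179 for *ETFA-like* (*p* = 0.167; rho = 0.190, *p* = 0.144), and in block 4 *r* was negative for all 5, down to -0.364. Block 4 holds oz175, which had the highest yield of the 61 sheep (35.7 g/kg) and a DMI of 0.376 kg/d. The *r* of block 4 without this sheep is not given here. Over all blocks, with the 2 sheep of most extreme yield set aside, *r* was 0.146 to 0.249. With DMI, *ACADS* had *r* = 0.298 (SE 0.110, *p* = 0.0183) and rho = 0.274 (*p* = 0.0322), while the adjusted *p* of its slope was 0.307. The 59 sheep nearest the median DMI gave *r* = 0.313, and blocks 1 to 4 gave 0.293, 0.316, 0.381 and 0.635. The other 4 genes had *r* with DMI between 0.0131 and 0.105, and negative values of -0.107 to -0.292 in block 2.

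All 5 genes had a positive *r* with live weight, but no slope passed the test, and the 3 genes of the table that did (0.0187%) had negative slopes. *HADH* had *r* = 0.315 with live weight (SE 0.115, permutation *p* = 0.0124; rho = 0.295, *p* = 0.0199), *ACADS* 0.273 (*p* = 0.0319; rho = 0.271, *p* = 0.0330) and *ACSF2* 0.262 (*p* = 0.0391; rho = 0.279, *p* = 0.0276). The adjusted *p* of these slopes were 0.407, 0.518 and 0.556. *ETFA-like* had *r* = 0.195 (*p* = 0.128; rho = 0.231, *p* = 0.0704) and *ECHS1* had 0.176 (*p* = 0.169; rho = 0.192, *p* = 0.134). With the 2 sheep of most extreme weight set aside, *r* of *HADH* was 0.242 (*p* = 0.0617) and that of *ACSF2* 0.217 (*p* = 0.0967), while *ACADS* had 0.263 (*p* = 0.0438). Blocks 1 to 4 gave 0.476, 0.299, 0.133 and 0.158 for *HADH*, while *ACADS* had 0.373, 0.433, -0.135 and 0.265, a negative value in block 3. With the muscle mean as a covariate, the slopes of *HADH* (0.13 log2 per SD of live weight, SE 0.0305, adjusted *p* = 0.0332) and *ACSF2* (0.09, SE 0.0232, 0.0465) passed. The share of all genes called in that fit is not given here. In all, 20 relations between a gene and a trait were computed. No member passed the interaction *F* test of whether its slope on a trait differed between blocks, with adjusted *p* of 0.712 or more. Of all genes, 0% were called in this test with CH4 production, 0% with CH4 yield, 0% with DMI and 0% with live weight, where 1187, 463, 963 and 464 genes had an unadjusted *p* under 0.05.

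**Figure D4:**
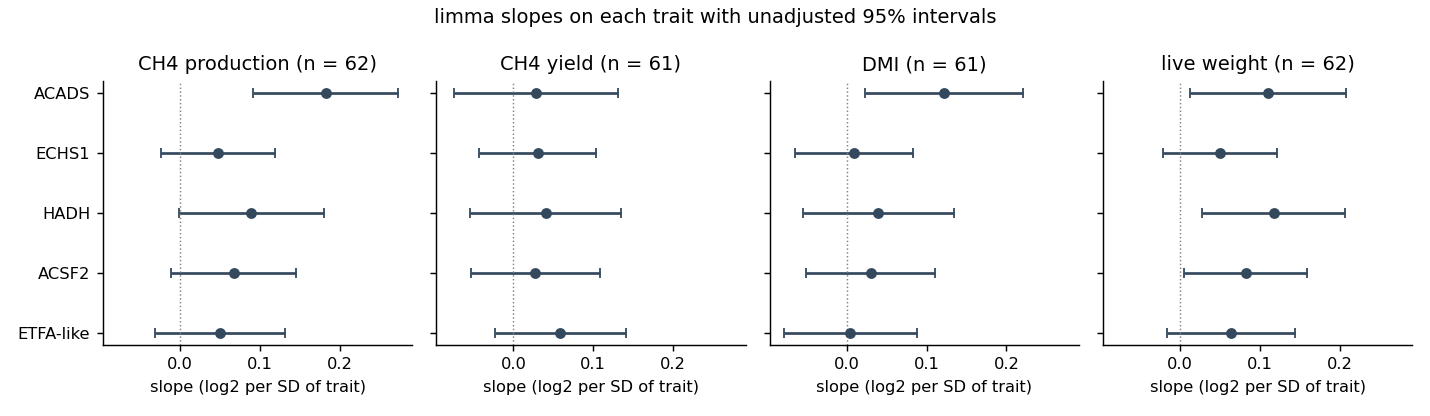
Slopes of the 5 genes on each trait in log2 per SD of the trait (x axis) with unadjusted 95% intervals, 1 panel for each trait and 1 row for each gene. The interval of *ACADS* on CH4 production (0.091 to 0.274) lies farthest from 0, and no slope passed after adjustment over all genes.

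None of the 15 other genes of the route was called with CH4 production either, in a table where 2 genes were. Their median *t* was 2.08 against -0.035 over all genes. Among their slopes were 0.15 log2 per SD for *SLC16A1* (unadjusted *p* = 0.00845), which carries short-chain acids and ketone bodies, 0.13 for *ACAA2* (0.00337) and -0.12 for *PPARGC1A* (0.215). The adjusted *p* was 0.290 or more for each of the 15.

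The 5 genes varied together from sheep to sheep. Over the 62 sheep, *r* of the 10 pairs ran from 0.723 (*ACADS* and *ECHS1*, SE 0.0533) to 0.898 (*HADH* and *ACSF2*, SE 0.0258) with a median of 0.842, and rho from 0.751 to 0.897. Each had a permutation *p* of 1e-05, the smallest possible. All 10 pairs passed limma regressions in both directions, where 15.3% of other genes rose with *ACADS*, 24.3% with *ECHS1*, 18% with *HADH*, 21.8% with *ACSF2* and 23% with *ETFA-like*. The pairs are a description, since the genes had been drawn from co-expression networks that include these sheep. The 4 lowest *r* were the 4 pairs with *ACADS* (0.723 to 0.786), and the 6 others ran from 0.839 to 0.898.

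The relations held in every block, with a lowest *r* of 0.495, 0.530, 0.760 and 0.778 and a highest of 0.911, 0.888, 0.910 and 0.927 for blocks 1 to 4. With the 2 sheep of most extreme level of the first gene set aside, *r* was 0.706 to 0.888. With the muscle mean held constant it was 0.526 to 0.794, with a median of 0.649, and *HADH* and *ACSF2* remained the closest pair. A first principal component took 85.7% of the spread of the 5 standardized genes. Of the 62 sheep, 20 had all 5 genes above their medians and 15 had none, so 35 sheep were on the same side for every gene.

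**Figure D5:**
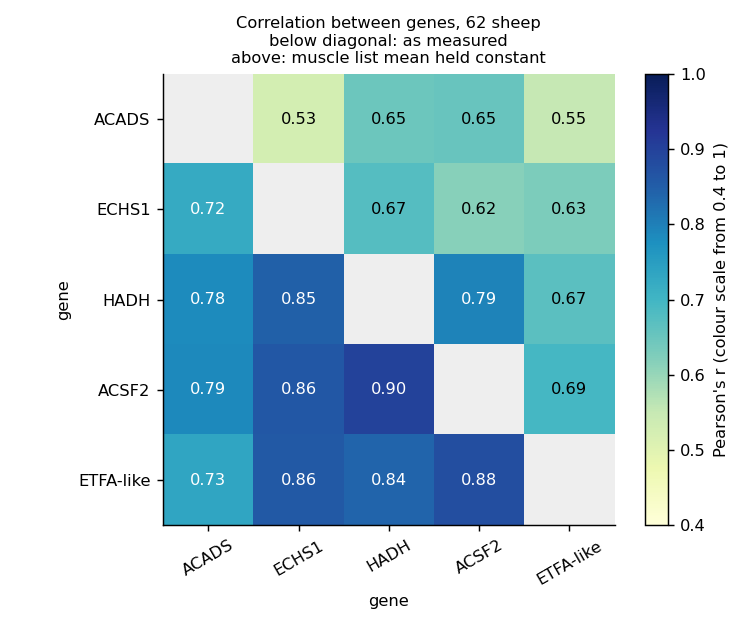
Pearson's *r* between the 5 genes over 62 sheep, as measured below the diagonal (0.723 to 0.898) and with the muscle mean held constant above it (0.526 to 0.794). The color scale runs from 0.4 to 1, and the row or column of *ACADS* holds the lowest values as measured.

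The spans of the genes and of their ratios were also compared. *ACADS* spanned 3.46-fold and *HADH* 3.18-fold between the highest and the lowest sheep, and *ECHS1*, *ACSF2* and *ETFA-like* spanned 2.42-, 2.60- and 2.64-fold. The ratio of *ECHS1* to *ETFA-like*, by contrast, spanned 1.71-fold and that of *ACSF2* to *ETFA-like* 1.72-fold. The ratios of *ACADS* to the other genes spanned 2.08- to 2.72-fold, the last of which is wider than the span of *ETFA-like* itself. That of *ACADS* to *ETFA-like* was lowest in sheep oz61 and highest in oz171.

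A set of 7 sheep was among the lowest 15 for every one of the 5 genes: oz40, oz89 and oz152 of block 1, oz183, oz197 and oz238 of block 3 and oz218 of block 4. Their muscle means were 5.95 to 6.63 log2 CPM. Another 7 were among the highest 15 for every gene, with muscle means of 5.02 to 5.67. They were oz132 and oz170 of block 2, oz141 of block 3 and oz43, oz97, oz179 and oz249 of block 4, with none of block 1. The muscle means of the 2 sets did not overlap. Each of the 5 genes falls as the muscle mean rises, so for sets picked on these genes this is not a separate result. Block 1 also had a sheep near the top of its own range for all 5 genes: oz166 was its highest for *ACADS* (8.05), *ECHS1* (9.02), *ACSF2* (9.93) and *ETFA-like* (7.59).

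With the members themselves left out, the genes closest to the mean of the 5 over all sheep were *BSG* (*r* = 0.945), *SLC16A1* (0.918) and *BDH1* (0.89998). *BSG* is needed to bring the monocarboxylate transporter encoded by *SLC16A1* to the membrane, and *BDH1* makes β-hydroxybutyrate. Among genes other than the members, *BSG* was also the closest to *ACADS* (0.860), before *CYP26A1* (0.841), which degrades retinoic acid, and *SLC16A1* (0.839), and the closest to *ETFA-like* (0.886). *ECHS1* was closest to *MGST3* (0.894), a microsomal glutathione transferase, *GJA1* (0.866), a gap junction protein, and *ECH1* (0.866). *HADH* was closest to *SELENBP1* (0.885), *HSD17B13* (0.871) and *SLC16A1* (0.865), and *ACSF2* to *CMBL* (0.913), the chloride transporter *CLCN3* (0.911) and *SLC16A1* (0.896). Next closest to *ETFA-like* were *MGST3* (0.878) and a gene without a symbol (0.874).

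Members ranked high in each other's lists. Among all 16010 other genes, members included, *ACSF2* was in position 3 for *ETFA-like* and *HADH* was in position 3 for *ACSF2*, while *ACSF2* was in position 1 for *HADH*. *ACADS* stood lower, in position 249 for *ECHS1*, 165 for *ETFA-like*, 58 for *ACSF2* and 34 for *HADH*. The median *r* over all genes was 0.00666 to 0.0165.

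A second gene of the table also bore the name *ETFA-like* (ENSOARG00000001476) and was singled out after its name was seen. It had 81 to 375 reads per library, against 483 to 2148 for ENSOARG00000010175. It lay at 4.01, 4.39 and 5.05 log2 CPM in block 1 (lowest, median and highest), and its medians were 4.81, 4.75 and 4.84 in blocks 2 to 4. Its difference in block 1 was -0.30 (SE 0.0974, adjusted *p* = 0.0116), and its *r* with the first was 0.866 (SE 0.0287, permutation *p* = 1e-05; rho = 0.859, *p* = 1e-05). Blocks 1 to 4 gave 0.799, 0.844, 0.931 and 0.782. The reads had been counted where they mapped uniquely, so near copies of a gene can share or lose reads, and the level of each of these genes is uncertain for that reason.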

How the data were processed

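Rumen wall RNA of the AUS sheep was read by the authors in paired ends from stranded libraries. TopHat with Bowtie2 placed the reads on Ensembl sheep models, to which models of epidermal differentiation genes had been added, and HTSeq counted those that mapped uniquely. Per the labels, edgeR and limma followed. What the authors deposited is log2 CPM (voom), the log2 of reads plus 0.5 over an effective library size. The reads were recovered as whole numbers in 100% of values (tolerance 0.01 reads) and served for depth and alternative scalings.

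Blocks were compared, and genes regressed on traits and on each other, in R 4.3.3 by limma 3.58.1, using its moderated statistics and a trend of variance on mean level. *p* was adjusted by Benjamini-Hochberg over 16011 genes at a threshold of 0.05. Differences are block 1 minus the others, or the lower-numbered minus the higher-numbered block. *r* and rho have 2-sided permutation *p* (100000 permutations), and the SE of *r* is from 2000 redraws of the sheep with replacement. Partial *r* used residuals. Python 3.11.15, numpy 2.4.6, scipy 1.17.1, pandas 2.3.3 and matplotlib 3.10.9 were used. The limma fits and permutation tests were tested on simulated data.

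Symbols came from the tables of the paper and cover 1224 genes. A gene of a list without a symbol there was not analysed here. The members, lists and named genes were chosen with earlier results of these data known. Named genes are the members, at most 4 genes of each list with the largest absolute effect, and the 3 closest by *r* to each member and to their mean. Some genes that meet this rule are not reported here. Each of the 62 sheep is 1 sample, and its replicate number is only a name. Alternatives were other scalings, filters, offsets, variance models, covariates, subsets of sheep and ranks of traits. Leaving out shallow libraries or each sheep in turn, sheep oz151 in the block comparisons, and depth as a covariate were added after seeing the data.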

Additional observations from a re-analysis of the deposited data

How the results depend on the processing

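No paired analysis was possible because the labels give no replicate numbers and each sheep was in 1 block. Of the values recomputed for single genes, 372 kept their direction and their side of the threshold, 16 lost a call, 8 gained one and 24 turned in sign. The 10 pairs of members were called under all 8 alternatives, and no member was called with CH4 yield or DMI under any of the 15 alternatives run for each. The main number of members that passed the *F* test over blocks was 3, and it was 1 with reads scaled to library totals, 0 with the muscle mean as a covariate and 5 with depth as a covariate. In block 1 against blocks 2–4 the 5 members called became 2 with total scaling, 3 with quantile normalization, 0 with the muscle mean as a covariate and 3 without the 3 shallowest libraries. With the muscle mean the signs of *HADH* (0.035) and *ACSF2* (0.047) turned. The other 22 turns of sign were slopes on CH4 yield or DMI that were called neither before nor after. On CH4 yield, the slopes per SD of *ACADS*, *ECHS1* and *ACSF2* were -0.013, -0.0099 and -0.015 with the muscle mean, -0.0065, -0.012 and -0.0085 with block, -0.0093, -0.015 and -0.012 with both, and -0.028, -0.0064 and -0.0053 in blocks 2–4 alone. *HADH* had -0.0034 with the muscle mean and -0.00089 in blocks 2–4 alone. With oz151 kept, *ECHS1*, *HADH* and *ACSF2* had -0.014, -0.017 and -0.012. On DMI, *ETFA-like* had -0.00025 with total scaling, -0.0035 with quantile normalization and -0.0043 with oz151 kept, and *ECHS1* had -0.0043 with quantile normalization and -0.0073 without oz151 and oz175. Leaving out each sheep in turn gave 3 to 5 members, and for CH4 production 0 to 0. With CH4 production, 1 member (*ACADS*) was called with block, with the muscle mean or with both as covariates, and with live weight 2 were called with the muscle mean, against 0 in the main comparison of each. The cause of these changes was not tested, and the share of all genes called in the covariate fits on traits is not given here. With 483 or more reads per library for every member, counting error is small beside the spread between sheep.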
